A study of Homo sapiens with 6 samples.

Results

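The clustered protocadherins were measured by bulk RNA-seq in HK-2 cells, an immortalised line from human proximal tubule epithelium. Members were taken by gene symbol: names that begin with PCDHA, PCDHB, PCDHGA or PCDHGB and end in a number, and the C-type genes PCDHAC and PCDHGC. The gene table held 40 of them among 16116 genes: 3 of the alpha cluster, 16 of the beta cluster and 21 of the gamma cluster. RefSeq lists 16 alpha, 16 beta and 22 gamma genes, so most alpha genes, the PCDHAC genes among them, were absent. The family was chosen with the contrast of knockout and wild-type cells in view, so its values in that contrast are a description.

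The knockout cells are HK-2 cells labelled FAM134B-KO (KO, 3 libraries), and the control is wild-type HK-2 (WT, 3 libraries). FAM134B, current symbol RETREG1, is a receptor for autophagy of the endoplasmic reticulum. The design text of the series names TAX1BP1 as the disrupted gene instead, so both were examined. RETREG1 had 33, 27 and 28 reads in the KO libraries, against 72, 80 and 73 in the WT libraries, and was called lower (-1.33 on the log2 scale with SE 0.18, adjusted p = 5.32e-07 by edgeR's quasi-likelihood test). TAX1BP1 averaged 151 ± 9.45 CPM in KO and 156 ± 6.30 CPM in WT (SD, n = 3 each), a difference of -0.05 on the log2 scale (SE 0.054) that was not called (adjusted p = 0.533). No treatment, time or separate culture is given for the libraries, nor whether the KO cells are 1 clone or several, so p-values reflect only how far these libraries scatter, possibly from technical sources.

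Libraries held 16796964 to 17127468 estimated reads. CPM here is reads scaled to library size with TMM factors, and 3 reads, taken as the floor, correspond to 0.175 to 0.179 CPM. In bulk RNA, fewer cells that express a gene and less RNA per cell cannot be told apart. Of 14 renal markers in the gene table, PAX8, KRT8, KRT18 and EPCAM were among the 6 tested, whereas the mature proximal tubule genes LRP2, CUBN, AQP1 and SLC34A1 lay under 1 CPM in every library. The clustered protocadherins are best known from neurons, and the neuronal genes RBFOX3, SYN1, STMN2 and NEFM were also under 1 CPM in every library. The summed level of the 8 neuronal markers in the table ranged from 91.3 to 107 CPM in KO and from 115 to 129 CPM in WT. Most of that sum was TUBB3, with 82.8 ± 8.22 CPM in KO and 108 ± 8.01 CPM in WT. Of the 4 tested, TUBB3 (-0.39 on the log2 scale) and SYT1 (-0.93) were lower in KO, and MAP2 was not called. The fourth, SNAP25, a vesicle fusion protein, was higher, at 8.46, 7.19 and 8.31 CPM in KO against 0.176, 0.117 and 0.178 CPM in WT. SNAP25 passed the filter on low counts through KO libraries alone, so it had to differ to be tested. The part of the neuronal markers in the protocadherin values was not tested.

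Clustered protocadherins are cadherin-type adhesion proteins that bind identical copies of themselves on a facing cell. Each alpha and gamma gene has its own promoter and a large variable exon that encodes the extracellular and transmembrane parts, and that exon is spliced to constant exons shared by the whole cluster. Beta genes are encoded without such constant exons. In mouse neurons each cell uses a small set of variable promoters, and the resulting surface identity serves self-avoidance of dendrites, while the C-type genes are used more uniformly. CTCF and cohesin bring the chosen promoters to distant enhancers, and DNA methylation of a promoter keeps it off.

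What a gene count means in the gamma cluster depends on the shared exons. The 4 sequences that follow show the last 30 bases of the variable exon in lower case and the first 30 bases of the shared exons in capitals, for the gamma genes on which the results turn (GENCODE v29 transcripts, plus strand of chromosome 5).
PCDHGB1: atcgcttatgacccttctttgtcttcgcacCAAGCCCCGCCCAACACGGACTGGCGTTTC
PCDHGB5: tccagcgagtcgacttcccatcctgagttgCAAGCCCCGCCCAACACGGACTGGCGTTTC
PCDHGB7: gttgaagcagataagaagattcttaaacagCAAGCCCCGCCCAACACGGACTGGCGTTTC
PCDHGC3: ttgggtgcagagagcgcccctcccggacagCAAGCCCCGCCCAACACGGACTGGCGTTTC
The capital part is the same in all 4, so a read that lies wholly in it cannot be given to 1 gene by its sequence. In the full-length transcripts 2181 bases are shared, which is 47.5% of PCDHGB1, 47.6% of PCDHGB5, 45.8% of PCDHGB7 and 46.2% of PCDHGC3. Within the variable exon, 9.31% of all 100-base windows of PCDHGB1 recurred in another clustered member, against 15.3% for PCDHGB5, 4.14% for PCDHGB7 and 0% for PCDHGC3. PCDHB2 had 11.4% of such windows, and PCDHB13 had 15.1%. Reads of these genes could be split between relatives, and their counts carry that uncertainty.

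Each variable exon has its own promoter, and most share a short conserved element around the letters CGCT. The 28 bases around it are shown for 8 members from the 3 clusters, with the core in capitals (RefSeq, GRCh38.p14, strand of the gene). PCDHB2 was added to this set after its values were seen.
PCDHA4: gccacatgatgtCGCTctttaccacaaa
PCDHB2: gacgcggggtggCGCTgcagccttagaa
PCDHB3: aacgcatggtggCGCTgttgactaagaa
PCDHB13: gacgcgtggtggCGCTgcaggataagaa
PCDHGB1: acctctgggcgcCGCTgtcgaccaaaag
PCDHGB5: gactctgggcgcCGCTgttggccaaagt
PCDHGB7: gcctctgggcgcCGCCgtcggccagtgc
PCDHGC3: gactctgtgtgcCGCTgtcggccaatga
The RefSeq promoter table matched 36 of the 40 members and held 47 promoters of the family in all. The core was CGCT in 11 of 13 alpha promoters, 13 of 14 beta promoters and 19 of 20 gamma promoters, where it was aligned to PCDHA4, PCDHB3 or PCDHGB5. The gamma exception was PCDHGB7, whose core differs from that of PCDHGB5 by T4C, counted from 1 at the 5′ end of the core. The other exceptions were PCDHA9 (G2A), PCDHAC1 (G2T) and PCDHB1 (C1T), of which PCDHAC1 and PCDHB1 matched the aligned box at only 14 and 15 of its 28 bases. PCDHAC2, counted among those with the core, matched at 13, so its alignment is no better. The whole windows of PCDHGB1, PCDHGB7 and PCDHGB5 are shown because these genes differed most in mean reads between KO and WT within the gamma cluster, from 250 bases before to 50 after the RefSeq start (GRCh38.p14, plus strand), again with the core in capitals.
PCDHGB1, chr5:141349849-141350148: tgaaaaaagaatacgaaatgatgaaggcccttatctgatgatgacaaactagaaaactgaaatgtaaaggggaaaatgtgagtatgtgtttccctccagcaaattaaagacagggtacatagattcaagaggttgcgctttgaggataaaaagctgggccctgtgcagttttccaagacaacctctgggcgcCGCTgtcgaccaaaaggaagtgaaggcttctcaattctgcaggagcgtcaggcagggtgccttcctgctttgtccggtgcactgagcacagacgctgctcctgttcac
PCDHGB7, chr5:141417427-141417726: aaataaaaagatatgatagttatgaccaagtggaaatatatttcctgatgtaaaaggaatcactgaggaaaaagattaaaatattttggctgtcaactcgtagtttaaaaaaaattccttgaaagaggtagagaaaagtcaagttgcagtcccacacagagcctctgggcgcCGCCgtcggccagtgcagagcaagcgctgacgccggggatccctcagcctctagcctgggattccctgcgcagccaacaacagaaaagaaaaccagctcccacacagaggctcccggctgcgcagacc
PCDHGB5, chr5:141397697-141397996: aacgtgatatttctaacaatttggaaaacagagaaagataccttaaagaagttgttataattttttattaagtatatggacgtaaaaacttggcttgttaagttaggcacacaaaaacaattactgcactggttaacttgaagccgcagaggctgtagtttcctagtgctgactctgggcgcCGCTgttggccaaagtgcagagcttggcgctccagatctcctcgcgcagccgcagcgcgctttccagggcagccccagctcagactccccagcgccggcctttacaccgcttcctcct
The core lay at position -58 from the start in PCDHGB1, -78 in PCDHGB7 and -68 in PCDHGB5.

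Motifs were searched on both strands of these windows. CGCT was present in 97.9% of the 47 family promoters, against 69.3% of all 27305 promoters in the table and 91.1% of those of the genes tested. On the strand of the gene alone the shares were 97.9% of the family, 53.9% of all promoters and 75.2% of those of the genes tested. CGCT also occurred elsewhere in the window of PCDHGB7. The longer GGCGCT, which contains CGCT, was in 92.9% of beta, 40.0% of gamma and 7.69% of alpha promoters, against 21.5% of all and 33.8% of those of the genes tested. A CTCF core motif, searched only as a fixed pattern of letters with some free positions, was in 2.13% of family promoters and 2.5% of all. Other forms of the CTCF site were not searched, so a promoter without this pattern may still hold such a site. Binding of CTCF was not tested. Family promoters were poorer in G and C, with medians of 37.3% in alpha, 40.8% in beta and 42.0% in gamma, against 58.3% over all promoters.

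The family was expressed at low levels, and a few gamma genes held most of its reads. PCDHGC3, a C-type gamma gene whose product binds the Wnt regulator Axin1 in mouse neurons, had the highest level, with 19.1 ± 3.42 TPM in KO and 18.9 ± 0.845 TPM in WT (TPM is scaled to transcript length). PCDHGB5, a variable gamma B gene, came next with 5.32 ± 0.186 TPM in KO and 8.22 ± 0.632 TPM in WT. The ranges of these genes over the 6 libraries did not overlap, and both lay above every other member. PCDHGC4 (mean 1.94 TPM over all libraries) and PCDHB3 (1.92 TPM) followed with overlapping ranges. From PCDHGB2 at 0.70 TPM, PCDHGB1 at 0.69 TPM and PCDHA4 at 0.58 TPM on, neighbours in the order overlapped.

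**Figure D1:**
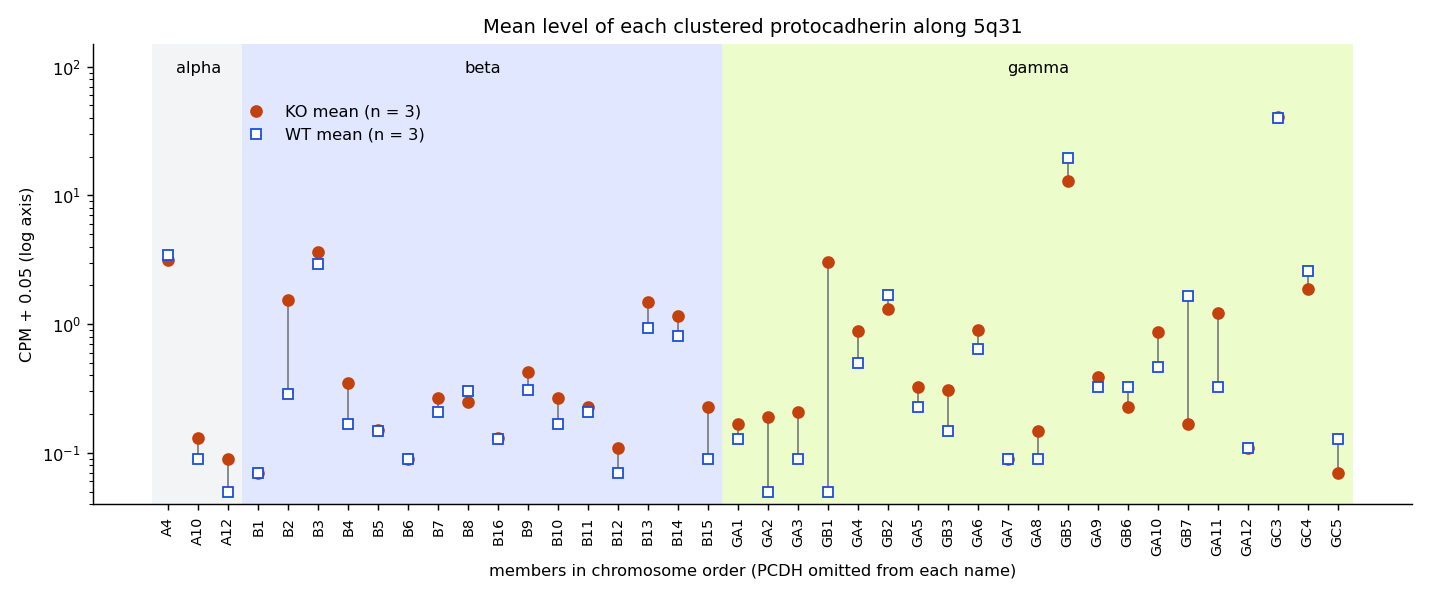
Mean CPM + 0.05 of the 40 clustered protocadherins on a log axis, in their order on chromosome 5, with filled circles for KO and open squares for WT (n = 3 each) and the alpha, beta and gamma clusters shaded. PCDHGC3 and PCDHGB5 stand above the rest, PCDHGB1 is at 0 reads in WT (drawn at 0.05), and PCDHGB7 is the gene with the longest drop in KO.

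Of the 40 members, 15 passed the count filter. The other 25 had at most 8 reads in any library. The filter asks for about 10 reads in 3 libraries, and PCDHGB1, PCDHB2 and PCDHGA11 reached that in KO libraries alone, while PCDHGB7 reached it in WT libraries alone, so these genes had to differ to be tested. Across all genes 36.8% of 12702 tested were called at an adjusted p under 0.05 (edgeR), 18.7% higher and 18.1% lower in KO. The members called were 6 of 15, or 40.0%, a share near that background. At least 2-fold and called were 4 of the 15 (PCDHGB1, PCDHB2, PCDHGA11 and PCDHGB7), against 4.76% of all genes, and the filter brought in each of those 4 through the group where it was high. PCDHGB1, PCDHB2, PCDHGA11 and PCDHB13 were called higher in KO, and PCDHGB5 and PCDHGB7 were called lower. Groups did not overlap for 8 of the 15, with KO above in 6 and below in 2, against 46.3% of all genes tested (23.2% above and 23.0% below), and 1 of those 6, PCDHB14, overlapped in TPM. These calls rest on the contrast with which the family was chosen, and nothing is read from their number. Calls at this depth changed with single libraries: 8 members were called without KO 2 or without WT 3, and 5 without KO 3 or without WT 1.

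**Figure D2:**
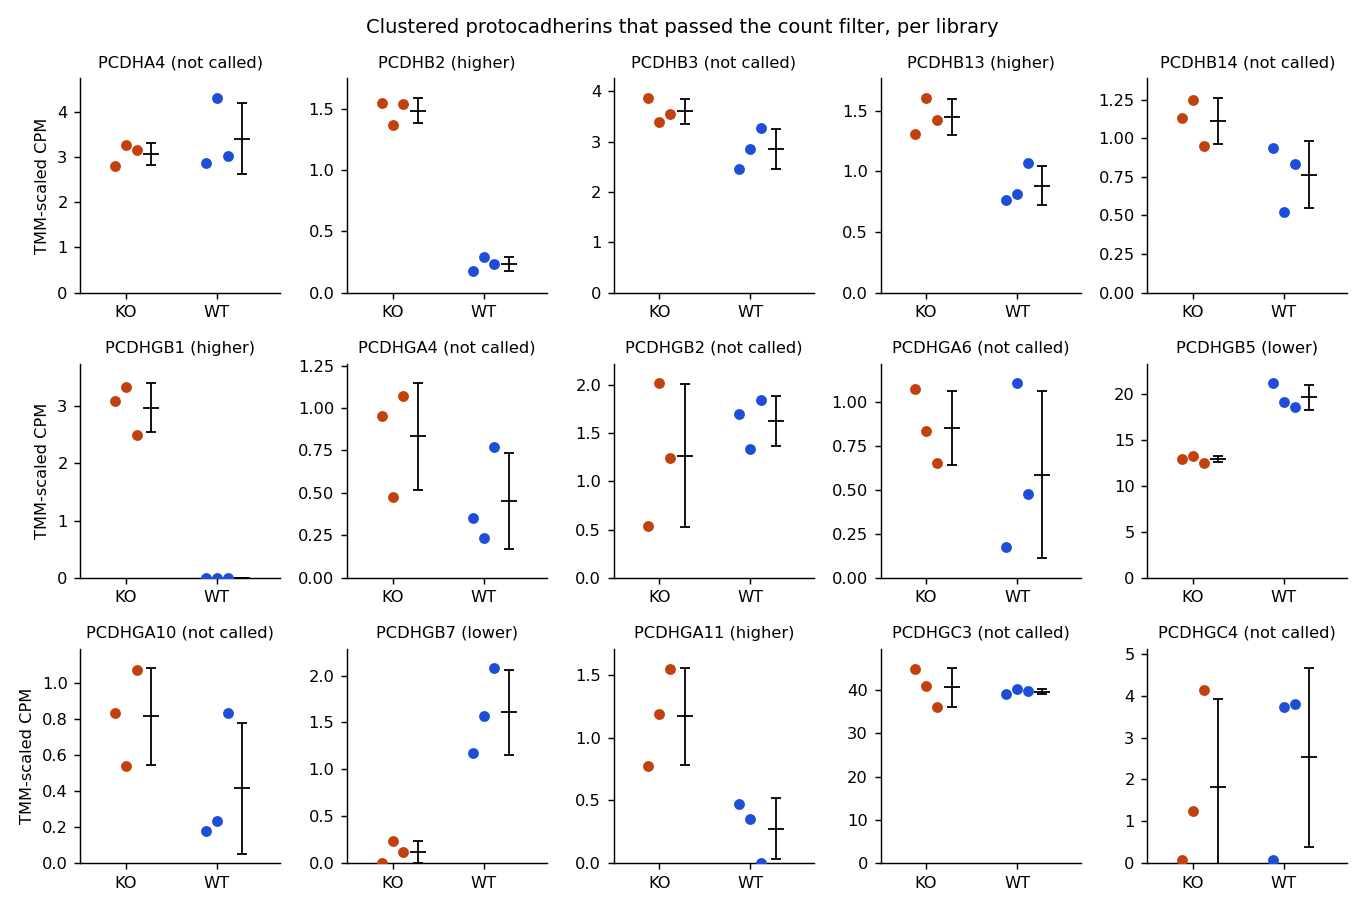
TMM-scaled CPM of the 15 tested members in each library, KO left and WT right, with points for libraries 1 to 3 from left to right and bars for mean ± SD (n = 3). PCDHGB1, PCDHB2, PCDHGB5 and PCDHGB7 show groups that stand well apart, while PCDHGC4 spreads from near 0 to about the level of its highest libraries within both groups.

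Of the 3 alpha genes in the gene table, PCDHA4, an alpha variable gene, held almost all reads. It had 47.44, 55.13 and 52.61 reads in the KO libraries, against 49.04, 73.94 and 50.56 in the WT libraries. The groups overlapped, with the highest value in WT 2, and PCDHA4 was not called (log2 fold change -0.15, SE 0.18; 0.06 without WT 2). PCDHA10 had 2.02, 0 and 2 reads in KO and 1, 0 and 1 in WT, and PCDHA12 had 2 reads in KO 2 and 0 in the other 5 libraries. All reads of PCDHA4 were placed on the transcript model NM_031500, which is 10557 bases long and carries none of the shared alpha exons. The alpha models that carry them had 0.28, 0 and 0.46 reads in KO and 0 in every WT library, all under the floor of 3 reads.

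Beta genes mostly had higher means in KO. PCDHB2, a beta gene, had 25.84, 23.25 and 26.36 reads in the KO libraries, against 3, 5.08 and 4.06 in the WT libraries. Every KO library was above every WT library, with means of 1.49 ± 0.103 CPM in KO and 0.235 ± 0.0577 CPM in WT (SD, n = 3 each). The fitted log2 fold change was 2.62 (SE 0.35). PCDHB13 had 21.72, 26.82 and 24.26 reads in KO, against 13, 14 and 17.57 in WT. Its groups did not overlap either, but its call (log2 fold change 0.71, SE 0.26) was lost without KO 2 (0.63), KO 3 (0.72), WT 1 (0.62) or WT 2 (0.66) and in DESeq2 (0.72).

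PCDHB3, the beta gene with the most reads, had 64.75, 56.75 and 60 reads in KO, against 42, 48.92 and 54.94 in WT, and was not called (log2 fold change 0.33, SE 0.17). PCDHB14 had 19.41, 21 and 16.20 reads in KO, against 16, 9 and 14 in WT, and was not called (0.53, SE 0.30). KO lay above WT in every library of PCDHB3. For PCDHB14, KO 3 and WT 1 were set apart by little more than scaling (0.950 CPM in KO 3 against 0.938 CPM in WT 1), and in TPM the order turned (0.41 in KO 3 against 0.42 in WT 1). The other 12 beta genes were not tested. PCDHB9, the highest of these in mean CPM, had 7.50, 5 and 6.08 reads in KO, against 2.41, 5 and 5.64 in WT. PCDHB8 had 4.28, 3.18 and 3 reads in KO, against 3, 8 and 2.43 in WT, and 25.7% of its 100-base windows recurred in another member. Among the untested beta genes, PCDHB4 and PCDHB15 had KO above WT without overlap, at 4, 6 and 5 reads against 0, 3 and 3 for PCDHB4 and 3, 3 and 3.04 against 0, 1 and 1 for PCDHB15. Counts this close to the floor carry little weight.

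The mean CPM was higher in KO for 15 of the 16 beta genes, although for PCDHB1, PCDHB5, PCDHB6 and PCDHB16 KO held no more than 102% of the WT level. Since 12 of the 16 had too few reads to be tested, this count carries little weight. Summed over the cluster, beta levels were 10.2, 9.22 and 9.38 CPM in the KO libraries, against 5.40, 6.0 and 6.89 CPM in the WT libraries, a ratio of 1.58. Without PCDHB2 the ratio was 1.39, with 8.13 ± 0.494 CPM in KO and 5.86 ± 0.728 CPM in WT, and the groups still did not overlap. PCDHB2 made up 15.6% ± 0.884 of beta reads in KO and 3.90% ± 0.904 in WT, and PCDHB3 made up 37.4% ± 0.680 in KO and 46.8% ± 1.03 in WT.

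The gamma B genes differed in opposite directions. PCDHGB1 had 51.65, 55.86 and 41.69 reads in the KO libraries, against 0 in each of the 3 WT libraries. Set against the floor of 3 reads over the WT group, it was at least 49.4-fold higher in KO. PCDHGB7 showed the opposite, with 0, 3.65 and 1.83 reads in KO, against 20.24, 27.18 and 35.30 in WT. KO lay below WT in every library, at 0.119 ± 0.119 CPM in KO and 1.61 ± 0.454 CPM in WT, where the KO mean is under the level of 3 reads. The fitted log2 fold change was -3.68 (SE 0.47), and it stood at -4.59 without KO 2 and -3.12 without KO 1.

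PCDHGB5, the gamma B gene with the most reads, had 216.73, 222.17 and 211.32 reads in KO, against 360.80, 327.94 and 313.30 in WT. Every KO library was below every WT library, at 12.9 ± 0.339 CPM in KO and 19.6 ± 1.37 CPM in WT, and KO held 65.7% of the WT level (log2 fold change -0.61, SE 0.086). PCDHGB2 had 9, 34.04 and 20.71 reads in KO, against 28.85, 22.56 and 31.32 in WT. Its groups overlapped and it was not called (-0.36, SE 0.30). It was called lower without KO 2 (-0.86) and stood at 0.01 without KO 1. All 9 reads of KO 1 lay on the model NM_032096, which carries no shared exons. All reads of KO 2, WT 1 and WT 2 lay on the full-length NM_018923, and KO 3 and WT 3 were split. The part of this placement in the PCDHGB2 values was not tested. PCDHGB3 and PCDHGB6 were not tested, with at most 7 and 7.15 reads in a library. PCDHGB3 had KO above WT without overlap, at 7, 2 and 4 reads against 2, 1 and 2, but the lowest KO library and the highest WT libraries held the same 2 reads and were set apart by scaling alone. Summed over the 6 gamma B genes the level was 17.7 ± 1.24 CPM in KO and 23.2 ± 1.20 CPM in WT, a ratio of 0.761 with no overlap. Without PCDHGB5, left out after the data were seen, the other 5 summed to 4.797 ± 0.944 CPM in KO and 3.61 ± 0.593 CPM in WT, a ratio of 1.33 with overlapping groups.

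Gamma A genes had few reads and higher mean CPM in KO for 12 of 12 genes, although PCDHGA7 and PCDHGA12 stood at 102% of the WT level. Since 8 of the 12 had too few reads to be tested, this count carries little weight. PCDHGA11 had 12.76, 20.25 and 25.68 reads in KO, against 8.35, 5.67 and 0 in WT. The groups did not overlap, and the fitted log2 fold change was 2.06 (SE 0.46), with 2.68 without WT 1 and 1.496 without WT 3. All PCDHGA11 reads lay on the model NM_018914 in KO 3 (25.68) and WT 2 (5.67), and on NM_032092 in KO 2 (20.25). KO 1 was split between NM_018914 (8.17) and NM_032091 (4.59), and WT 1 between NM_032092 (6.16) and NM_032091 (2.19). Shared exons make up 46.9% of NM_018914, 17.0% of NM_032092 and 0% of NM_032091. The part of this placement in the call was not tested. PCDHGA10 had 13.82, 9.28 and 18.08 reads in KO, against 3.45, 3.55 and 13.56 in WT, and was not called (0.97, SE 0.44). PCDHGA4 had 16.30, 8 and 18.28 reads in KO, against 6, 3.56 and 12.81 in WT, and was not called (0.87, SE 0.41). In both genes WT 3 overlapped the KO range. Both were called without WT 3 (1.95 for PCDHGA10 and 1.49 for PCDHGA4) or without KO 2 (1.20 and 1.15). All PCDHGA4 reads of KO 2 (8) and WT 1 (6) lay on the model NM_032053, which carries no shared exons. Those of KO 1, KO 3 and WT 3 lay on the full-length NM_018917. So did 3.41 of the 3.56 reads in WT 2, the lowest library. The part of this placement in the PCDHGA4 values was not tested. PCDHGA6 had 18.35, 14 and 11.09 reads in KO, against 3, 18.59 and 8 in WT, and was not called (0.53, SE 0.41), except without WT 2 (1.37). The remaining 8 gamma A genes were not tested. PCDHGA2 among them had 0, 3.63 and 3.33 reads in KO and 0 in every WT library, so the groups overlapped. The summed gamma A level was 4.65, 4.28 and 5.76 CPM in KO, against 2.29, 2.50 and 2.49 CPM in WT, a ratio of 2.02 with no overlap, and without PCDHGA11 the ratio was 1.73.

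**Figure D3:**
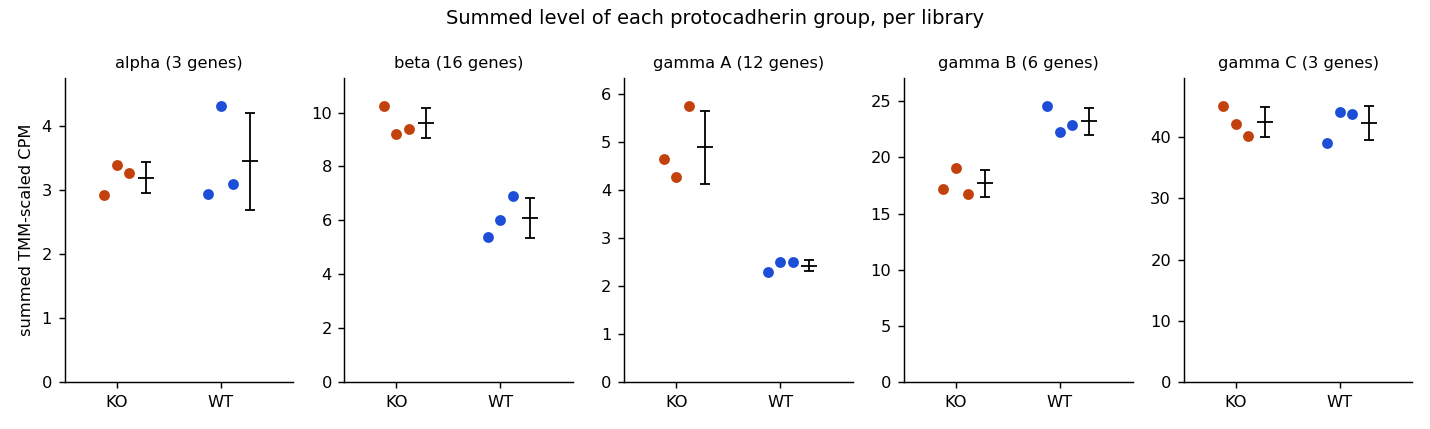
Summed TMM-scaled CPM of the alpha, beta, gamma A, gamma B and gamma C genes in each library, KO left and WT right, with mean ± SD (n = 3). KO lies above WT for beta and gamma A and below WT for gamma B, though not without PCDHGB5, and the groups overlap for alpha and gamma C.

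The C-type gamma genes did not separate the groups. PCDHGC3 had 754.58, 689.01 and 607.68 reads in KO, against 666.15, 690.85 and 669.30 in WT. KO 1 was highest and KO 3 lowest of the 6 libraries, and PCDHGC3 was not called (log2 fold change 0.04, SE 0.072; -0.04 without KO 1). PCDHGC4, which supports survival of interneurons in mouse, had 1, 20.57 and 70.01 reads in KO, against 1, 64.32 and 64.18 in WT. It ranged from 1 to over 60 reads within each group (SE of the log2 fold change 1.33), so neither group has a stable level. All PCDHGC4 reads in KO 2 and KO 3 and 96.9% and 98.4% in WT 2 and WT 3 were placed on the model NM_001386884, whose exons GENCODE v29 does not describe. PCDHGC5 had 1, 0 and 0 reads in KO and 0, 1 and 3 in WT.

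The sum over the gamma cluster did not separate the groups, although its makeup differed. It was 65.1 ± 2.15 CPM in KO and 67.9 ± 1.71 CPM in WT, a ratio of 0.958 with overlapping groups. Over all 40 members the sum was 77.9 ± 2.38 CPM in KO and 77.5 ± 2.75 CPM in WT. PCDHGC3 took 67.3%, 62.5% and 57.5% of gamma reads in KO, against 59.2%, 58.6% and 57.5% in WT. PCDHGB5 took 19.8% ± 0.451 in KO and 28.9% ± 2.74 in WT. PCDHGB1 took 4.54% ± 0.563 in KO and 0 in WT, and PCDHGB7 took 0.168% ± 0.166 in KO and 2.38% ± 0.621 in WT. These shares are of reads, not scaled to length, and they are not independent, since a fall in 1 share raises the others.

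**Figure D4:**
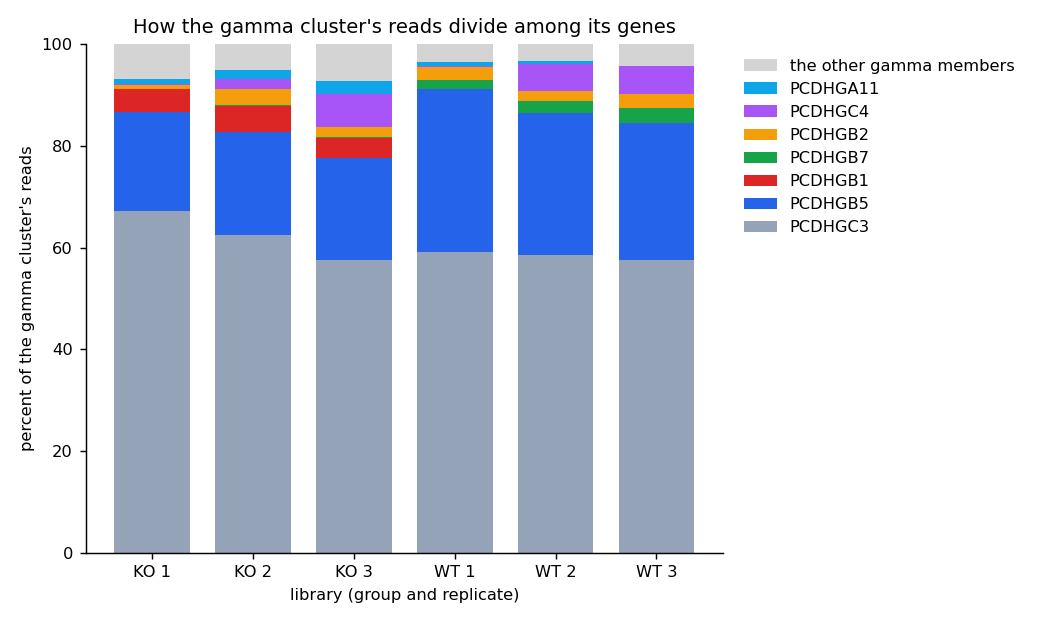
Percent of the gamma cluster's reads held by each of 7 genes and by the other 14 together, per library, KO on the left and WT on the right. PCDHGB1 appears in the 3 KO bars alone, and PCDHGB7 is a thin band in the WT bars (1.80% to 3.03%) and almost absent from KO. PCDHGB5 is wider in every WT bar, and PCDHGC4 varies within both groups.

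The transcript table shows how gamma reads were placed. Of 40 gamma models, 20 carry the shared exons and 2 are not in GENCODE v29. Models with the shared exons held 92.5% ± 4.32 of gamma reads in KO and 93.5% ± 4.16 in WT. The 2 models outside GENCODE v29 were not counted among these, and whether they carry the shared exons is not known here. NM_001386884 of PCDHGC4 is such a model, with 0, 20.57 and 70.01 reads in KO, against 0, 62.32 and 63.18 in WT. PCDHGB1 reads lay on the full-length model NM_018922 (42.79, 55.86 and 29.03 reads in KO) and on a shorter model without the shared exons, NM_032095 (8.86, 0 and 12.65 reads in KO), with 0 on both in every WT library. The shorter model contains none of the shared exons, so in KO 1 and KO 3 some PCDHGB1 reads were placed outside them. PCDHGB5 reads lay almost entirely on its full-length model, at 97.9% ± 1.83 in KO and 98.7% ± 2.19 in WT. All PCDHGB7 reads lay on the full-length model NM_018927. PCDHGC3 divided between its full-length model, with 86.8% ± 4.75 of its reads in KO and 87.0% ± 3.13 in WT, and NM_032403, a model of 2346 bases of which 92.9% is shared exon. The reads on NM_032403 were 126.77, 103.97 and 43.16 in KO and 108.44, 81.19 and 67.19 in WT, and 167 bases of that model lie outside the shared exons.

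Regulators of the locus showed changes at about the general rate. Of 40 tested, 10 were called higher and 3 lower in KO (32.5%, against 36.8% of all genes), with a median log2 fold change of 0.03 against 0.00 over all genes. CTCF, which sets the promoter loops, averaged 105 ± 3.27 CPM in KO and 105 ± 3.76 CPM in WT (log2 fold change -0.01, SE 0.053, adjusted p = 0.937). SMCHD1, a silencer of the clusters in mouse, averaged 94.4 ± 6.71 CPM in KO and 91.3 ± 4.27 CPM in WT (0.05, SE 0.059, adjusted p = 0.55). SETDB1, a histone H3 lysine methyltransferase, rose by 0.34 (SE 0.059, adjusted p = 4.05e-05), and the cohesin subunit STAG2 rose by 0.23 (SE 0.054, adjusted p = 0.00112, edgeR quasi-likelihood test). The cohesin subunits RAD21 (0.16), SMC1A (0.21) and SMC3 (0.18) were called higher as well, while STAG1 (0.05) was not called. RAD21, SMC1A, SMC3 and STAG1 were named after their values were seen. The methyltransferase EHMT2 stood at 143, 149 and 160 CPM in KO, against 89.7, 93.5 and 95.1 CPM in WT (0.70, SE 0.055, adjusted p = 3.26e-11). PDS5A, a cohesin-associated factor, stood at 477, 473 and 449 CPM in KO, against 318, 306 and 290 CPM in WT (0.61, SE 0.050, adjusted p = 6.24e-11).

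Genes beside EHMT2 and PDS5A moved the same way. The 50 tested genes nearest to EHMT2 on chromosome 6 had a median log2 fold change of 0.67, with 45 of 50 above 0, and those nearest to PDS5A on chromosome 4 had a median of 0.50, with 44 of 50 above 0. For SETDB1 the median was 0.15, with 37 of 50 above 0. The part of these surroundings in the 3 values was not tested. Around the protocadherin clusters themselves, the 50 nearest tested genes that are no members had a median of -0.01, with 23 above 0.

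Of 27 tested genes beside and between the clusters, 4 were higher and 3 lower in KO (25.9% called, against 36.8% of all genes, median 0.01). HBEGF, a growth factor that binds the EGF receptor, stood at 6.37, 6.78 and 6.23 CPM in KO, against 14.2, 13.6 and 11.2 CPM in WT (-1.01, SE 0.11, adjusted p = 1.96e-08). PFDN1, a chaperone subunit, fell by 0.33 (SE 0.061, adjusted p = 0.000102, edgeR) and NDFIP1, an adaptor of ubiquitin ligases, fell by 0.23 (SE 0.059, adjusted p = 0.00283). SPRY4, an inhibitor of receptor kinase signalling, rose by 0.57 (SE 0.12, adjusted p = 0.000533). TAF7, a transcription factor subunit whose gene lies between the beta and gamma clusters, averaged 61.5 ± 1.98 CPM in KO and 64.8 ± 0.662 CPM in WT (-0.07, SE 0.057, adjusted p = 0.339) and was named after its values were seen.

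Binding partners and processing enzymes moved in both directions, with 7 of 34 tested called higher and 8 lower in KO (44.1%, against 36.8% of all genes, median -0.04). NLGN1, a synaptic adhesion protein that gamma protocadherins bind in mouse, stood at 15.2, 10.8 and 13.4 CPM in KO, against 2.93, 4.08 and 4.34 CPM in WT (1.79, SE 0.14, adjusted p = 4.73e-11). ADAM10, the protease that sheds gamma protocadherin ectodomains, fell by 0.34 (SE 0.052, adjusted p = 5.26e-06), and APH1B, a subunit of the gamma-secretase that cuts the remaining stub, fell by 0.84 (SE 0.090, adjusted p = 1.65e-08). Among other gamma-secretase subunits, NCSTN rose by 0.28 (SE 0.049, adjusted p = 4.28e-05, edgeR) and APH1A rose by 0.19 (SE 0.053, adjusted p = 0.0057). Both were named after their values were seen. The 50 tested genes nearest to NCSTN had a median log2 fold change of 0.08, with 31 above 0. For APH1A the median was 0.15, with 37 of 50 above 0, and for APH1B it was -0.13, with 17 of 50 above 0. The part of these surroundings in the 3 values was not tested. LRP5, a Wnt co-receptor, fell by 0.88 (SE 0.086, adjusted p = 3.21e-09, edgeR quasi-likelihood test).

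Protocadherins and large cadherins outside the clusters had 3 of 12 tested called higher and 2 lower in KO (41.7%, near the 36.8% of all genes, median 0.10). FAT2, a giant cadherin, stood at 5.06, 6.06 and 4.39 CPM in KO, against 29.2, 29.998 and 29.5 CPM in WT (-2.51, SE 0.10, adjusted p = 1.75e-17). PCDH20, a non-clustered protocadherin, stood at 0.477, 0.357 and 0.475 CPM in KO, against 2.58, 2.27 and 2.14 CPM in WT (-2.40, SE 0.28, adjusted p = 5.41e-08). DCHS2, a relative of the FAT ligand Dachsous, stood at 3.81, 3.39 and 4.33 CPM in KO, against 0.235, 0.175 and 0.178 CPM in WT, where it was near the floor (4.24, SE 0.30, adjusted p = 3.02e-12). PCDH20 passed the count filter through WT libraries alone and DCHS2 through KO libraries alone. Both had to differ to be tested, and nothing is read from their calls. CELSR1, a planar polarity cadherin, rose by 0.27 (SE 0.050, adjusted p = 8.21e-05).

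**Figure D5:**
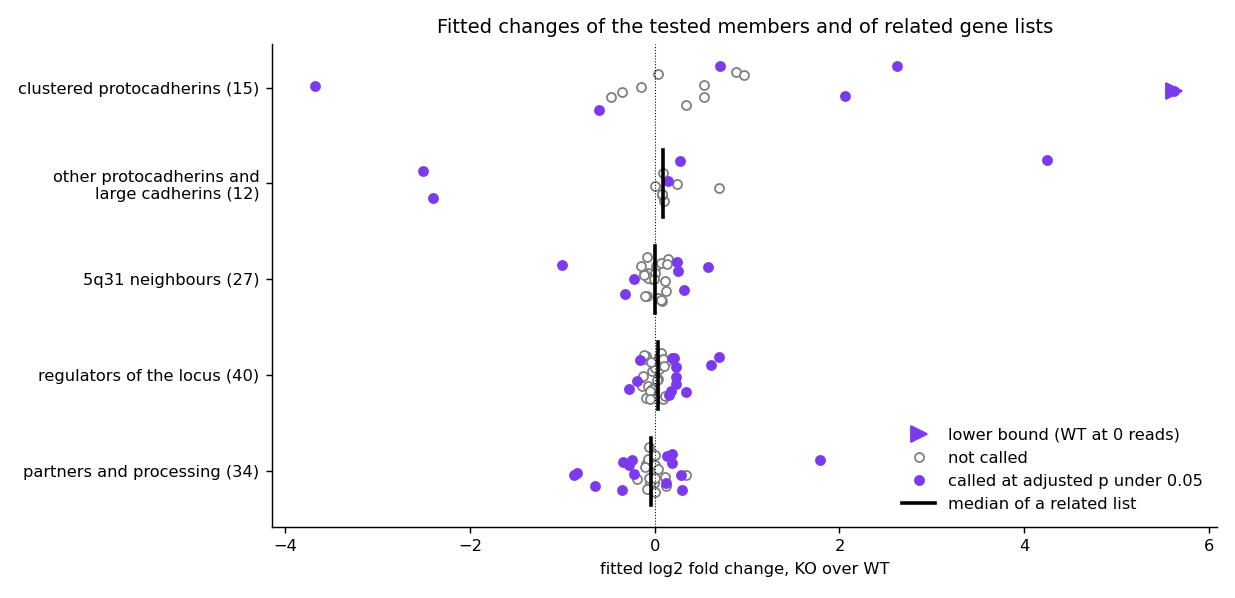
Fitted log2 fold changes (KO over WT) of the 15 tested clustered protocadherins and of 4 related gene lists, with filled points for genes called at an adjusted p under 0.05, a triangle for the lower bound of PCDHGB1 and a bar for each related list's median. The medians of the related lists lie between -0.04 and 0.10, and the called protocadherins fall on both sides of 0.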

How the data were processed

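RNA was sequenced from 3 KO and 3 WT libraries of HK-2 cells, grouped by the labelled genotype. Tools named in the submitters' processing notes were Cuffdiff 2.2.1, HISAT2 2.0.1, cutadapt 1.9.1, FastQC 0.10.1 and bcl2fastq 2.17.1.14, with build GRCh37. The read counter, library kit and strand setting were not given in the sources used here. The authors deposited estimated counts of reads, FPKM values and TPM values per library for 16116 genes and 79852 RefSeq transcripts. Of the deposited estimated counts, 13.0% to 14.0% per library were not whole, and all were rounded for testing. The authors' group means were not used.

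Genes kept by filterByExpr (minimum count 10, minimum total 15) were tested with edgeR 4.0.16 (TMM, robust quasi-likelihood, Benjamini-Hochberg over 12702 genes, threshold 0.05) in R 4.3.3. Log2 fold changes are KO over WT, and their SE is the absolute change over the square root of F. The test was checked on simulated data first. Genes with few reads were given no change in that simulation, so it does not cover counts as low as those of many tested members. Alternatives were DESeq2 1.42.0, limma 3.58.1 on log2 FPKM or TPM, other scalings and filters, a replicate block, and leaving out each library. The floor of 3 reads covers counting error only.

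Members and lists were chosen with earlier results of these data known. Genes named in full are RETREG1 and TAX1BP1, the 6 members of each cluster with the highest mean CPM, called members that changed at least 2-fold, up to 4 called genes of each related list by adjusted p, and CTCF, SMCHD1 and SETDB1. By that rule promoters of the 2 highest members of each cluster and of the largest rise and fall were chosen. PCDHA10, with about 1 read per library, was left out, and of the others 3 are shown as whole windows. Sequences came from RefSeq and GENCODE v29 tables on GRCh38, and gene order from RefSeq names. All library pairs within a group differed beyond sampling noise. Same-numbered KO and WT libraries deviated together weakly (r = 0.156, 0.0134 and 0.113 over genes), so the numbers were not taken to pair them.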

Additional observations from a re-analysis of the deposited data

How the results depend on the processing

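PCDHGB5 was called lower under all 17 alternatives. PCDHGB1 was called higher under them too, but it passed the filter through KO alone, so nothing is read from that. The 4 called higher and 2 called lower became 1 and 1 with limma on log2(FPKM + 1) or log2(FPKM + 0.1), and 2 and 1 with limma on log2(TPM + 1), where fewer members passed the filter. In beta, 2 called higher became 1 with DESeq2 and with log2(TPM + 1), 0 with both FPKM settings, and 1 to 2 leaving out a library. In gamma, 2 called higher became 1 when 1 CPM in 3 libraries was required and 1 with each limma setting, and 2 to 4 leaving out a library, while 2 called lower became 1 with each limma setting.

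Among regulators, 10 called higher became 6 with log2(TPM + 1), and 3 called lower became 5 with upper-quartile factors or library size alone, and 1 to 5 leaving out a library (5 without KO 1, 1 without KO 2). Among partners, 7 called higher became 4 with each limma setting and 4 to 8 leaving out a library (4 without KO 3 or WT 2). Of the protocadherins outside the clusters, 3 higher and 2 lower became 1 and 1 with both FPKM settings. Among 5q31 neighbours, 4 called higher became 2 with DESeq2 and with each limma setting, and 2 to 3 leaving out a library (2 without any 1 WT library). The cause was not tested.

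With the replicate number as a block, members called were 7 in place of 6, PCDHGA10 added, regulators called lower were 7 and 5q31 neighbours called lower were 5. Genes called over all were 3013 higher and 2934 lower with the block, against 2380 and 2299 without it. WT 2 correlated best with KO 3 (r = 0.0548), while WT 1 correlated best with KO 1 (r = 0.156) and WT 3 with KO 3 (r = 0.113). Whether the numbers pair the libraries cannot be told from these values. DESeq2 called 1955 higher and 1810 lower.

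Signs changed for uncalled genes. PCDHGC3 was at -0.001 with log2(TPM + 1). Leaving out a library, log2 fold changes ranged from -0.26 to 0.0576 for PCDHA4, -0.0419 to 0.12 for PCDHGC3, -1.94 to 0.10 for PCDHGC4, -0.86 to 0.0076 for PCDHGB2, -0.0314 to 0.0227 for CTCF and -0.0104 to 0.0884 for SMCHD1. Without the member with the most reads, the log2 ratio of summed levels was 1.60 in place of -0.11 for alpha, where 2 genes of a few reads remain, 0.89 in place of 0.66 for beta and -0.21 in place of -0.06 for gamma. For the gamma B genes it was 0.41 without PCDHGB5, in place of -0.39. Leaving out PCDHGC4 (-0.05), PCDHB2 (0.47) or PCDHGA11 (0.79) moved the gamma, beta or gamma A value by no more than 1 SD. These members and PCDHGB5 were chosen after the data were seen.

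By TPM in place of reads, NM_002588 held 75.4% of PCDHGC3 in KO and 75.6% in WT. Among promoters of the genes tested, CGCT was in 91.1%, GGCGCT in 33.8% and the CTCF core motif in 2.9%. The filter on low counts left out 25 members with at most 8 reads in a library. With no filter all 40 were tested and PCDHGA2 was called as well, and DESeq2 tested 34.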
